A study of Mus musculus with 6 samples.

Results

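The genes described here encode the machinery that brings proteins into the endoplasmic reticulum, folds them there and removes those that fail to fold, together with the sensors that adjust its capacity. Members were chosen by name, as rows of the deposited gene table whose symbol equalled 1 of 32 listed genes. Of these, 31 were found among the 27179 genes of the table. Ero1lb was not listed under that symbol; the same gene is listed as Ero1b, and its values are given beside the others without being counted with them. Messenger RNA had been sequenced from primary smooth muscle cells of the mouse aorta in 6 libraries, 3 labelled Bmal1 KO and 3 labelled WT. Bmal1, listed under its older symbol Arntl, encodes the partner of CLOCK in the circadian clock. Both groups of cells had spent 7 days in medium that the labels call diabetic, in which glucose was at 4.5 g/L and hydrogen peroxide at 0.3 mM, so no group without this medium is compared here. The labels give neither the Bmal1 allele nor the age or strain of the mice, and do not say whether replicates came from separate animals or cultures, and the spread that the p-values rest on may therefore be technical.

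Secreted and membrane proteins enter the endoplasmic reticulum through the SEC61 channel and fold there with the help of chaperones. BiP, an ATP-driven chaperone, works with J-domain partners, calnexin and calreticulin hold glycoproteins by their sugars, and protein disulfide isomerases make and rearrange disulfide bonds. Proteins that stay misfolded are drawn back to the cytosol and degraded. The sensors IRE1, PERK and ATF6 respond to unfolded proteins: IRE1 splices the Xbp1 mRNA, PERK phosphorylates a translation initiation factor, and ATF6 is cut to release a transcription factor. These steps act on RNA processing or proteins, so gene-level counts give the mRNA levels of the sensors and not their activity. Smooth muscle cells secrete much collagen and elastic matrix, which passes through this compartment.

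Promoter windows from RefSeq (GRCm38.p6, 250 bases before to 50 after each annotated transcript start) were found for 26 of the 31 members. They were searched on both strands for the endoplasmic reticulum stress element (ERSE), which is CCAAT and CCACG with 9 bases between them, and for the related ERSE-II, ATTGG and CCACG with 1 base between them, which are known as binding sites of ATF6 and XBP1. An ERSE was present in 9 of the 26 member windows (34.6%), against 39 of all 32851 windows (0.119%). An ERSE-II was present in 2 (7.69%), against 12 (0.0365%) of all windows. The member list is made of known genes of this pathway, so these shares describe the list. Full windows are shown for Hspa5, which encodes BiP, for calreticulin and calnexin, which share the ERSE and moved in opposite directions, and for Dnajb11 and Herpud1, which share the ERSE-II and also moved in opposite directions. In mm10 coordinates these are chr2:34771840-34772139 on the plus strand for Hspa5, chr8:84846882-84847181 on the minus strand for Calr, chr11:50325624-50325923 on the minus strand for Canx, chr16:22857595-22857894 on the plus strand for Dnajb11 and chr8:94386179-94386478 on the plus strand for Herpud1. Each is written from 5′ to 3′ along the gene's strand, with the fixed bases of the motif in capitals; in Calr the motif lies on the opposite strand and so reads as its reverse complement.
Hspa5: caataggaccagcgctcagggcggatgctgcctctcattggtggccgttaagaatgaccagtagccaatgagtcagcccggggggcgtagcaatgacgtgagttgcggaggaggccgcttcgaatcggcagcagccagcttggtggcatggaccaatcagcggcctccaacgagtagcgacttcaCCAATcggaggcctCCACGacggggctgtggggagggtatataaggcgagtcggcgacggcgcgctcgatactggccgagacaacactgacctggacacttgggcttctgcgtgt
Calr: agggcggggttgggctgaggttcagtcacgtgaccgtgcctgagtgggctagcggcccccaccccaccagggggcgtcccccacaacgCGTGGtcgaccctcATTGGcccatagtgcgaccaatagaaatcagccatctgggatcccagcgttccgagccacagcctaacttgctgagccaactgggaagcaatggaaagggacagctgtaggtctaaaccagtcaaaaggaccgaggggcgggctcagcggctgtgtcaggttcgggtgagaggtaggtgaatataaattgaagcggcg
Canx: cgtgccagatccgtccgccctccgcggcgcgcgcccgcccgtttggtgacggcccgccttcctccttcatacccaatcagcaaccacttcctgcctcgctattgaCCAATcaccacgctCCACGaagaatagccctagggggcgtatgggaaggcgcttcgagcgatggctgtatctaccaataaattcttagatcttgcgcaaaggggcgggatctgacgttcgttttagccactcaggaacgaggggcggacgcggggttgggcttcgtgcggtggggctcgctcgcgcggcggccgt
Dnajb11: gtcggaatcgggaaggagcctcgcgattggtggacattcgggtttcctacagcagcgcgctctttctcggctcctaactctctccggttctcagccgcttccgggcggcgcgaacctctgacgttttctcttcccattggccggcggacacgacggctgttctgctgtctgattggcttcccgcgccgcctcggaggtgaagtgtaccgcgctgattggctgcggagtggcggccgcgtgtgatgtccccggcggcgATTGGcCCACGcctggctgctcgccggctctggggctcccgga
Herpud1: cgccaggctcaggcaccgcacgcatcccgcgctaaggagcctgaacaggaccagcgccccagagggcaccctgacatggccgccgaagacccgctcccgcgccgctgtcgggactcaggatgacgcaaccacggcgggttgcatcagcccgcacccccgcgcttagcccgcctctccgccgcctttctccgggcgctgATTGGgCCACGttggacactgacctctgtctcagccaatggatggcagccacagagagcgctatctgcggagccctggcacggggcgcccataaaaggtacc
The matches of the other members with an ERSE are shown to compare their spacer bases, each written from its CCAAT end and the fixed bases in capitals.
Creld2: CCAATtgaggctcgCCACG
Derl3: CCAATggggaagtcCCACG
Dnajc3: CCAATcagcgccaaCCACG
Hsp90b1: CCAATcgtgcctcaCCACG
Hsp90b1: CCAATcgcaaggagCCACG
Pdia6: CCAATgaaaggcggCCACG
Syvn1: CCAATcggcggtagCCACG
The ERSE began 65 bases before the start of Hspa5, 162 before that of Calr and 145 before that of Canx. Hsp90b1, which encodes the chaperone GRP94, held 2 of them, and Ero1b held 1 beginning 201 bases before its start. The E-box CACGTG, a sequence that CLOCK and BMAL1 are known to bind, was in 4 member windows (15.4%), those of Calr, Derl3, Dnajb9 and Ssr1, against 7.15% of all windows. No member window held TGACGTGG, another sequence known for XBP1 and ATF6, which 0.676% of all windows held.

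**Figure D1:**
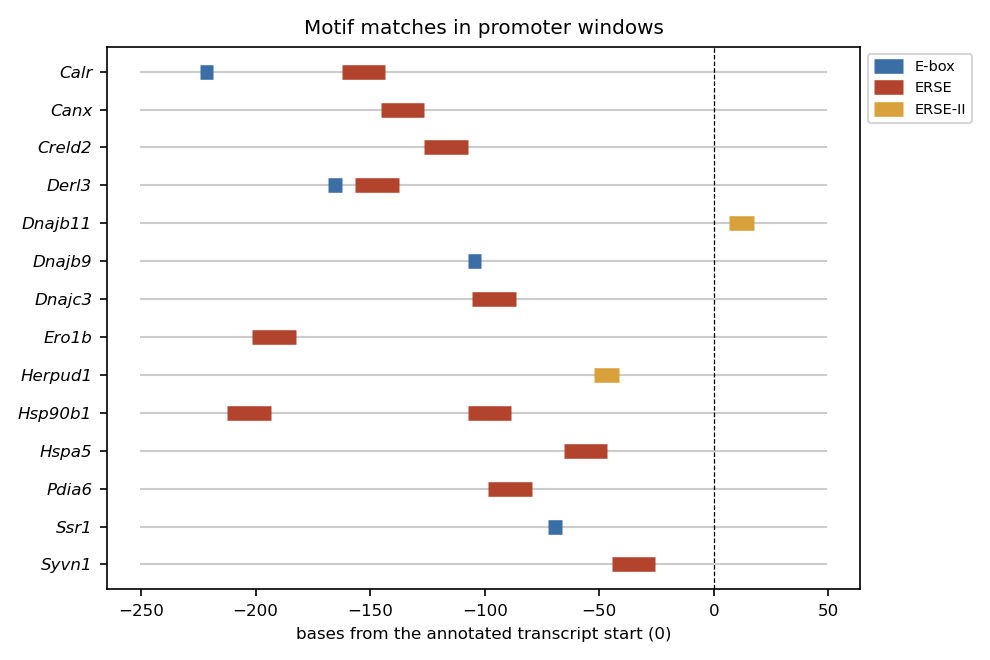
Positions of ERSE, ERSE-II and E-box matches on either strand in the promoter windows that hold any of them, in bases from the annotated transcript start, which is 0. Grey lines are the windows; ERSE matches lie before the start in all 10 genes that have one (Ero1b included), and the ERSE-II of Dnajb11 lies after it.

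The mRNA of Bmal1 itself was higher, not lower, under the Bmal1 KO label. Arntl had 1036, 941 and 1036 normalized counts there, against 529, 619 and 590.4 in the WT libraries (log2 fold change 0.79, SE 0.091, adjusted p = 0.000135). Counts over the whole gene cannot show a deleted exon, so every direction below is between libraries as labelled. Reads assigned to genes ran from 32503525 to 38074293 in libraries labelled Bmal1 KO and from 39129037 to 44657471 in the WT libraries. Xist was at 3842 to 3887 in libraries labelled Bmal1 KO and at 12.4 to 89.9 in the WT libraries. The Y-linked genes Ddx3y, Eif2s3y, Kdm5d and Uty went the other way. Their means were 77.1, 101, 49.96 and 26.1 in libraries labelled Bmal1 KO, against 3109, 2178, 1286 and 648 in WT. The groups did not overlap for Xist or for any of these Y-linked genes. Sex-linked expression thus separated the same libraries as the genotype label, and the parts of sex and genotype cannot be told apart. Of 8 smooth muscle marker genes all 8 were higher, with summed values of 147829 to 157229 in libraries labelled Bmal1 KO and 52152 to 58187 in the WT libraries. Fibroblast markers split, with 2 of 5 higher and 3 lower (sums of 15676 to 16573, against 37283 to 39325 in WT). Most of the WT sum was Dcn, which averaged 26320 in WT and 2403 in libraries labelled Bmal1 KO. Most of the sum under the Bmal1 KO label was Pdgfra, at 12442 there and 10681 in WT. Endothelial markers were higher in 4 of 5 cases (715 to 921, against 316 to 434 in WT), and of 6 macrophage markers 5 were higher and Cd68 was lower (1809 to 2053, against 829 to 1035 in WT). The marker counts use the test described below, by which 36.2% of all genes tested rose and 34.9% fell. No marker was at 0 in any library, and the part of cell makeup in the results below was not tested. In bulk RNA, fewer cells of a type and less RNA per cell cannot be told apart.

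Under the Bmal1 KO label, folding and degradation genes were higher more often than lower, by modest amounts. All 31 passed the filter on low values. Of them, 18 rose, 6 fell and 7 did not pass the test, limma on log2(value + 1) with Benjamini-Hochberg adjustment over 16086 genes and a threshold of 0.05. The 24 that passed made up 77.4%, against 71.1% of all genes tested. Rises made up 58.1% of members, against 36.2% of all genes tested, and the falls 19.4%, against 34.9%. The median log2 fold change was 0.30 over the members and -0.012 over all genes tested. Sizes were smaller than is usual in this comparison, with a median absolute log2 fold change of 0.42 over the members and 0.63 over all genes tested. The latter include genes that only just reached 10 in 3 libraries, and the sets were not matched for expression level. Only Derl3 and Pdia5 rose and only Ern1 and Derl1 fell by at least 1 on the log2 scale, that is 2 members each way, where 20.6% of all genes rose and 12.8% fell by as much. The groups did not overlap for 26 members, or 83.9%, against 76.7% of all genes. The libraries labelled Bmal1 KO lay above for 20 and below for 6 of them, where 38.5% of all genes lay above and 38.2% below. Together the 31 genes took 1.13%, 1.10% and 1.11% of reads in libraries labelled Bmal1 KO, against 1.01%, 1.00% and 1.00% in the WT libraries.

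**Figure D2:**
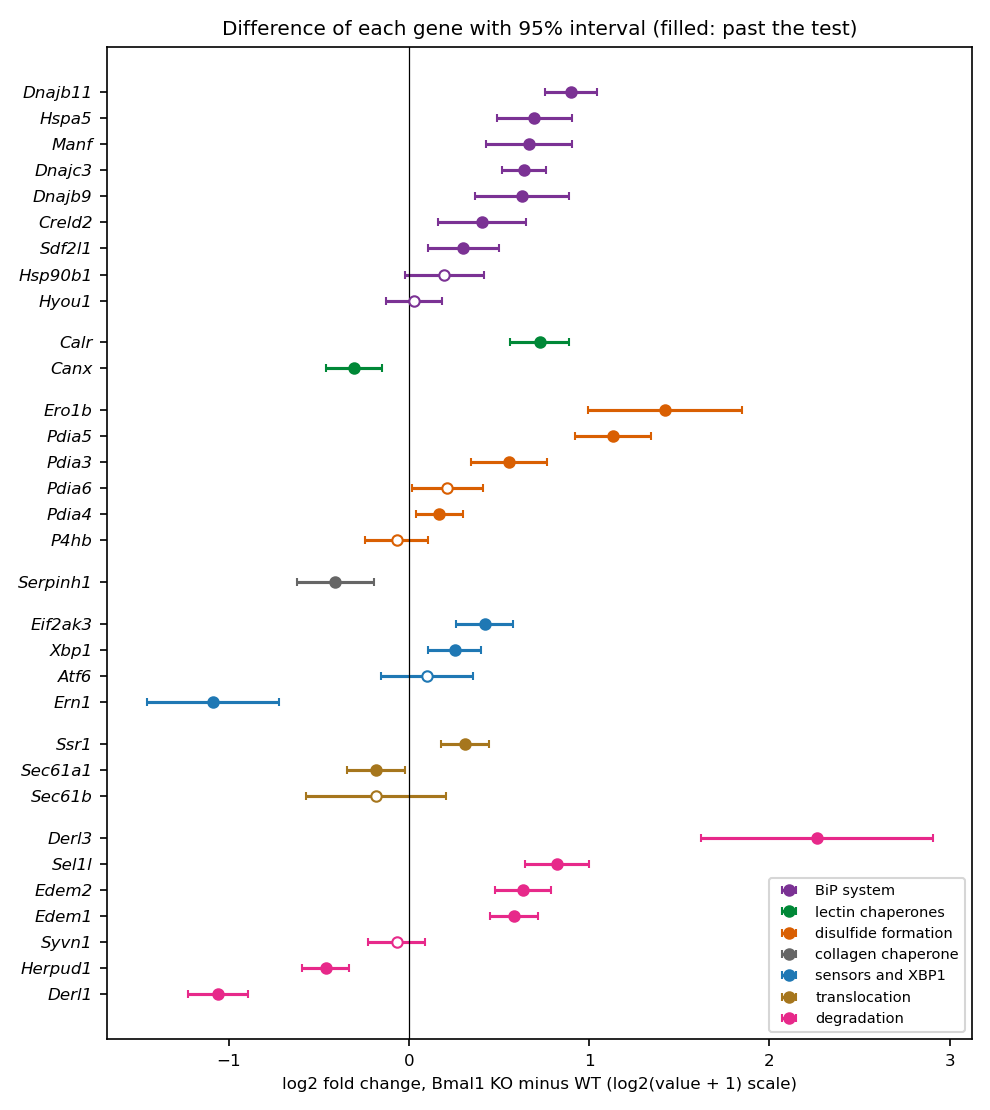
Log2 fold change of each gene, Bmal1 KO minus WT, with its 95% interval from limma, grouped by role; filled points passed the test and open points did not. Derl3 lies farthest to the right at 2.26, and Ern1 and Derl1 lie farthest to the left at -1.09 and -1.06.

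BiP and most of its partners were more abundant under the Bmal1 KO label. In this group of 9 genes, 7 rose, none fell, and Hsp90b1 and Hyou1 did not pass, where 36.2% of all genes tested rose and 34.9% fell. Hspa5 (NCBI Gene ID 14828, chromosome 2, 34772090 to 34776529) had 59305, 57978 and 58629 normalized counts in libraries labelled Bmal1 KO, against 40082, 34054 and 34803 in the WT libraries. The lowest of the libraries labelled Bmal1 KO lay well above the highest WT library, and the 3 of them lay close together. That is 1.61-fold more (log2 fold change 0.70, SE 0.089, adjusted p = 0.000253). Hspa5 alone took 0.153%, 0.149% and 0.152% of all reads in libraries labelled Bmal1 KO, against 0.107%, 0.0920% and 0.0966% in WT.

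The J-domain partners among the members, which bring substrates to BiP and start its ATP cycle, rose together. Dnajb11, also called ERdj3, had 6219, 5787 and 5816 normalized counts in libraries labelled Bmal1 KO, against 3242, 3038 and 3273 in the WT libraries (1.87-fold, log2 fold change 0.90, SE 0.061, adjusted p = 8.33e-06). Dnajc3 had 10914, 11015 and 11241 in libraries labelled Bmal1 KO, against 7149, 7050.2 and 7084 in WT (1.56-fold, adjusted p = 2.35e-05). Neither gene's groups came near each other. Dnajb9, also called ERdj4, averaged 2064 ± 87.9 in libraries labelled Bmal1 KO and 1346 ± 199 in WT (SD, n = 3 each, adjusted p = 0.00138). Manf, which encodes a small secreted protein that binds BiP, averaged 9842 ± 568 in libraries labelled Bmal1 KO and 6242 ± 869 in WT (1.58-fold, adjusted p = 0.000666). Creld2 rose 1.32-fold (adjusted p = 0.00902), and Sdf2l1, whose product joins ERdj3, rose 1.23-fold (adjusted p = 0.0132). Sdf2l1 no longer passed when replicate 3 of Bmal1 KO was left out (adjusted p = 0.0546, with a range of 0.00110 to 0.0546 over 15 alternatives).

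The mRNAs of GRP94 and of HYOU1, a nucleotide exchange factor of BiP, did not pass the test. Hsp90b1 had 59866, 56327 and 56258 normalized counts in libraries labelled Bmal1 KO, against 55362, 46740.1 and 48687 in WT, with a log2 fold change of 0.20 and a 95% interval of -0.022 to 0.42 (adjusted p = 0.0931). Its groups did not overlap, with the libraries labelled Bmal1 KO above. WT replicate 1 was the highest of its group, and without it Hsp90b1 passed (log2 fold change 0.27, adjusted p = 0.00941, with a range of 0.00941 to 0.245 over 15 alternatives). Hsp90b1 also passed with DESeq2 (log2 fold change 0.20, adjusted p = 0.0260). An antisense gene shares 14.7% of its exon bases, and the strand setting used for counting is not given in the sources used here. Hyou1 averaged 11227 ± 260.2 in libraries labelled Bmal1 KO and 11025 ± 732 in WT, with an interval of -0.13 to 0.19 around 0.028 on the log2 scale.

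**Figure D3:**
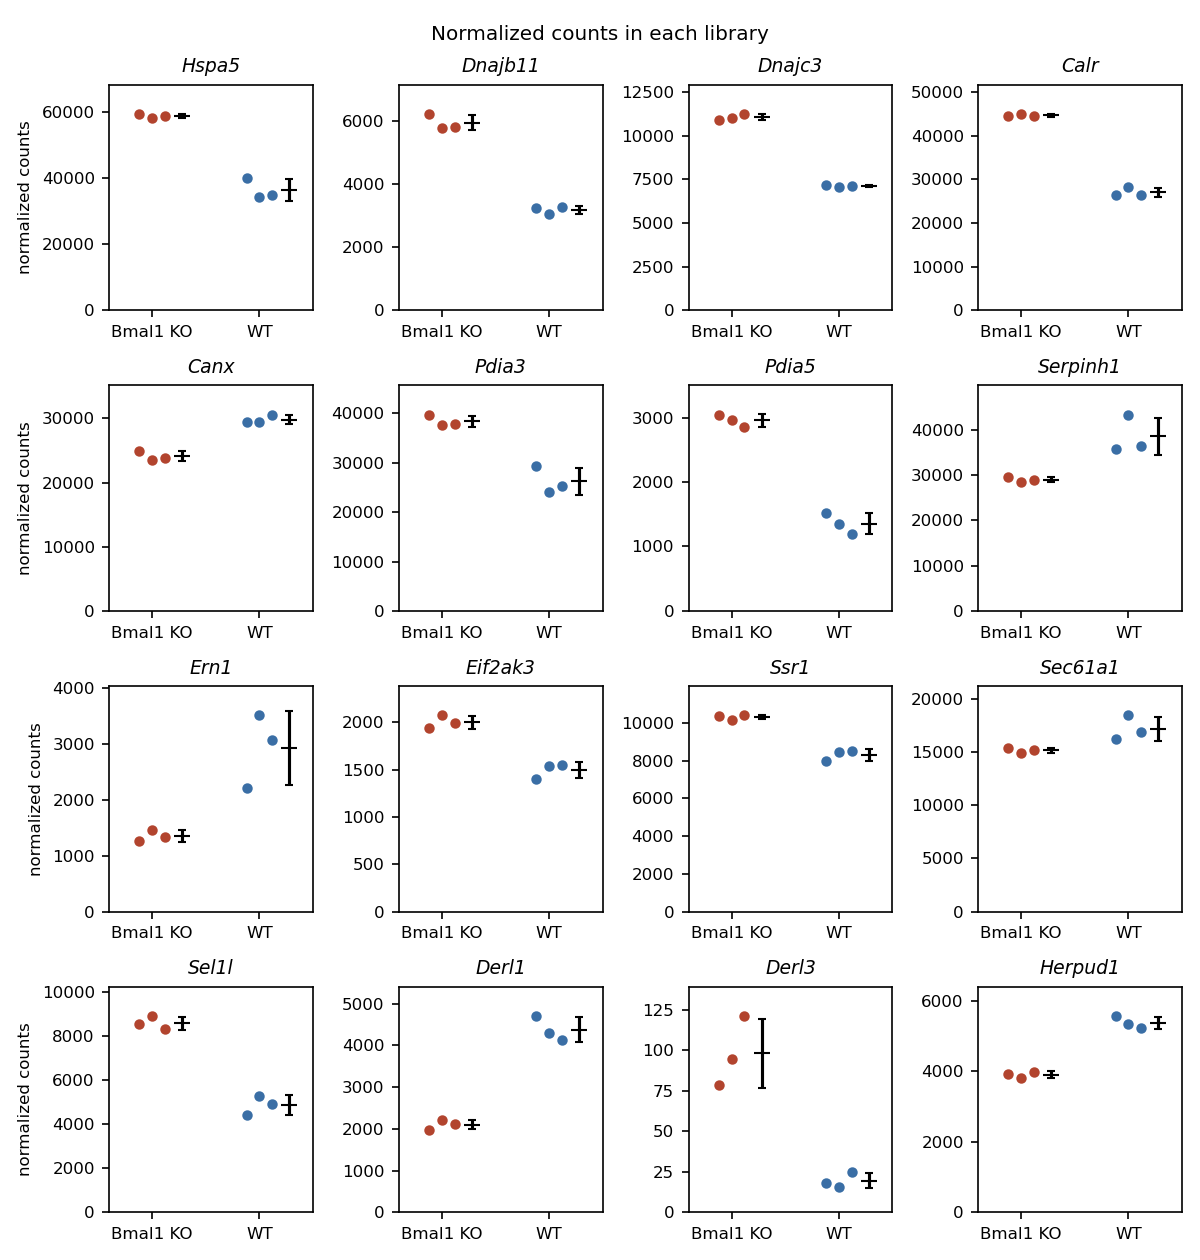
Normalized counts in each library for 16 genes, with the mean and SD of 3 libraries beside the points; each axis starts at 0. The libraries labelled Bmal1 KO lie above all WT libraries for Hspa5, Dnajb11, Dnajc3, Calr, Pdia3, Pdia5, Eif2ak3, Ssr1, Sel1l and Derl3 and below them for Canx, Serpinh1, Ern1, Sec61a1, Derl1 and Herpud1.

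The lectin chaperones moved in opposite directions. Calr, which encodes the soluble calreticulin (Gene ID 12317, chromosome 8, 84842088 to 84846931), had 44555, 44946 and 44364 normalized counts in libraries labelled Bmal1 KO, against 26414, 28169 and 26417 in the WT libraries. It rose 1.65-fold (log2 fold change 0.73, SE 0.070, adjusted p = 5.38e-05). Canx, which encodes the membrane-bound calnexin, had 24941, 23466 and 23858 in libraries labelled Bmal1 KO, against 29386, 29373 and 30579 in WT. It fell 1.24-fold (log2 fold change -0.31, SE 0.067, adjusted p = 0.00382). Per exon length, transcripts of Calr exceeded those of Canx 3.51, 3.76 and 3.65 times in libraries labelled Bmal1 KO and 1.76, 1.88 and 1.70 times in the WT libraries, a ratio that no scaling of the libraries can change.

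Among disulfide isomerases the changes were uneven, with 3 of 5 higher, none lower and 2 not passing. Of all genes tested, 36.2% rose and 34.9% fell. Pdia5 (Gene ID 72599, chromosome 16, 35397308 to 35490919), an isomerase with a lower level than its relatives, had 3046, 2969 and 2852 normalized counts in libraries labelled Bmal1 KO, against 1519, 1342 and 1199 in WT. That 2.18-fold rise was the largest of this group (log2 fold change 1.13, SE 0.091, adjusted p = 2.05e-05). Pdia3, which encodes ERp57, the isomerase that works with calnexin and calreticulin, had 39729, 37654 and 37901 in libraries labelled Bmal1 KO, against 29353, 24167 and 25273 in WT (1.46-fold, adjusted p = 0.000903). Pdia4 averaged 14950 ± 162 in libraries labelled Bmal1 KO and 13304 ± 242 in WT (1.12-fold, adjusted p = 0.0275), and 7 of 15 alternatives lost the call, among them TMM scaling and leaving out any 1 library labelled Bmal1 KO or WT replicate 3 (adjusted p from 0.00249 to 0.156). Pdia6 had a log2 fold change of 0.21 with an interval of 0.017 to 0.41 (adjusted p = 0.0510), and it passed in 5 alternatives, with an adjusted p of 0.000735 without WT replicate 1 (0.000735 to 0.149 over all 15). P4hb encodes the founding member of the family, which is also the beta subunit of collagen prolyl hydroxylase. It averaged 35809 ± 1102 in libraries labelled Bmal1 KO and 37569 ± 1826 in WT, with an interval of -0.24 to 0.11 on the log2 scale.

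The oxidases that recharge these isomerases differed in direction. Ero1b, the row that corresponds to Ero1lb, had 997, 979.6 and 1172 normalized counts in libraries labelled Bmal1 KO, against 401, 296 and 500.1 in WT (2.63-fold, log2 fold change 1.42, SE 0.18, adjusted p = 0.000258). Its relative Ero1a had 3459, 3609 and 3416 in libraries labelled Bmal1 KO, against 6876, 7562 and 7992 in WT (2.14-fold lower, adjusted p = 6.21e-06). Groups of both genes were far apart. Per exon length, Ero1b stood at 0.196, 0.185 and 0.233 of Ero1a in libraries labelled Bmal1 KO, against 0.0397, 0.0266 and 0.0426 in WT.

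The collagen chaperone was lower. Serpinh1, which encodes HSP47 (Gene ID 12406, chromosome 7, 99345375 to 99353239), had 29535, 28425 and 28976 normalized counts in libraries labelled Bmal1 KO, against 35839.9, 43361 and 36534 in WT. It fell 1.33-fold (log2 fold change -0.41, SE 0.092, adjusted p = 0.00451), with WT replicate 2 above the other 2.

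The sensors of unfolded protein did not move as a set. Ern1, which encodes IRE1 alpha (Gene ID 78943, chromosome 11, 106397620 to 106487796), had 1265, 1464 and 1345 normalized counts in libraries labelled Bmal1 KO, against 2219, 3517 and 3072 in WT. WT libraries varied widely, yet the lowest of them exceeded every library labelled Bmal1 KO. The fall was 2.16-fold (log2 fold change -1.09, SE 0.16, adjusted p = 0.000482), close in size to that of Derl1. Eif2ak3, which encodes PERK, had 1937, 2073 and 1989 in libraries labelled Bmal1 KO, against 1399, 1541 and 1546 in WT, a 1.34-fold rise (log2 fold change 0.42, adjusted p = 0.000883). An antisense gene shares 10.0% of its exon bases. Atf6 had 4004, 4092 and 3982 in libraries labelled Bmal1 KO, against 3121, 4248 and 3991 in WT, which overlap (log2 fold change 0.10, interval -0.16 to 0.36). Xbp1 rose slightly, to 6376 ± 345 in libraries labelled Bmal1 KO, against 5347 ± 202 in WT (1.19-fold, adjusted p = 0.00796). Spliced and unspliced Xbp1 are summed in these counts. Per exon length, Eif2ak3 stood at 2.58, 2.39 and 2.49 times Ern1 in libraries labelled Bmal1 KO and at 1.06, 0.738 and 0.848 times in WT.

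Genes of the translocation channel changed little. Ssr1, a subunit of the translocon-associated TRAP complex, had 10331, 10161 and 10386 normalized counts in libraries labelled Bmal1 KO, against 7954, 8451 and 8484 in WT (1.24-fold, log2 fold change 0.31, adjusted p = 0.00159). Sec61a1, which encodes the pore itself, had 15343, 14896 and 15206 in libraries labelled Bmal1 KO, against 16248, 18442 and 16882 in WT. Its groups did not overlap, but the fall was small (1.13-fold, log2 fold change -0.18, adjusted p = 0.0450), and 8 of 15 alternatives lost it, among them leaving out any library except WT replicate 1 (adjusted p from 0.00938 to 0.143). An antisense gene shares 17.3% of its exon bases. Sec61b, a small subunit, had 2078, 1530 and 1632 in libraries labelled Bmal1 KO, against 2503, 1754 and 1727 in WT, with overlapping groups and an interval of -0.57 to 0.21 on the log2 scale.

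Degradation genes split within 1 machine. Sel1l encodes the adaptor of the ubiquitin ligase HRD1 and Syvn1 encodes HRD1. Sel1l had 8549, 8901 and 8316 normalized counts in libraries labelled Bmal1 KO, against 4411, 5269 and 4935 in WT (1.76-fold, log2 fold change 0.82, SE 0.077, adjusted p = 4.53e-05). Syvn1 had 2977, 3021 and 3199 in libraries labelled Bmal1 KO, against 3026, 3436 and 3181 in WT, which overlap (log2 fold change -0.067, interval -0.23 to 0.091). Per exon length, Sel1l stood at 1.67, 1.71 and 1.51 times Syvn1 in libraries labelled Bmal1 KO and at 0.846, 0.890 and 0.900 times in WT. The ratio was thus higher under the Bmal1 KO label. The WT ratios lie near 1, so the order of the partners there depends on the exon lengths used. Edem1 and Edem2, whose products trim mannose from misfolded glycoproteins and mark them for disposal, rose by 0.58 and 0.63 on the log2 scale (adjusted p = 6.15e-05 and 9.01e-05).

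Derlins, membrane proteins of the retrotranslocation site, went in opposite directions. Derl1 (Gene ID 67819, chromosome 15, 57869502 to 57892418) had 1984, 2204 and 2109.9 normalized counts in libraries labelled Bmal1 KO, against 4701, 4302 and 4123 in WT. This was a 2.08-fold fall (log2 fold change -1.06, SE 0.073, adjusted p = 8.72e-06). Derl3 (Gene ID 70377, chromosome 10, 75893398 to 75895941), a derlin known from secretory tissues, had 78.5, 94.7 and 121 in libraries labelled Bmal1 KO, against 18.3, 15.8 and 24.9 in WT. It rose 4.99-fold from a low level (log2 fold change 2.26, SE 0.28, adjusted p = 0.000193), on 262 reads in libraries labelled Bmal1 KO and 66 in WT. Markers of plasma cells, which also express Derl3, were higher under the Bmal1 KO label in 3 of 4 cases, where 36.2% of all genes tested rose. Jchain had 230.3, 234 and 352 in libraries labelled Bmal1 KO, against 25.7, 24.0 and 84.7 in WT, and Mzb1 had 175, 38.4 and 80.0 in libraries labelled Bmal1 KO, against 27.5, 3.32 and 15.7 in WT. Pou2af1 was also higher (62.0 ± 34.6 in libraries labelled Bmal1 KO and 14.4 ± 10.6 in WT). Sdc1 was lower (5594 ± 89.0 in libraries labelled Bmal1 KO and 6820 ± 569 in WT). None of the 4 was at 0. Their sum ran from 5792 to 6149 in libraries labelled Bmal1 KO and from 6401 to 7475 in WT, and most of it was Sdc1. The part of these markers in the Derl3 result was not tested. Herpud1, which encodes a scaffold of the degradation complex, had 3932, 3806 and 3989 in libraries labelled Bmal1 KO, against 5567, 5357 and 5218 in WT (1.38-fold lower, log2 fold change -0.46, adjusted p = 0.000190).

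Members with an ERSE did not all move one way. Of the 9 with an ERSE in the window shown, 5 rose, Canx fell, and Hsp90b1, Pdia6 and Syvn1 did not pass. Of the 17 windows without one, 12 belonged to genes that rose and 3 to genes that fell. The ERSE-II windows belonged to Dnajb11, which rose, and Herpud1, which fell. The 4 genes with an E-box were among the 58.1% of members that rose, where 36.2% of all genes rose, and no relation of the E-box to direction was tested. Atf6, Derl1, Hyou1, Manf and Sec61a1 had no window to search.

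Levels spanned a wide range when expressed per exon length as TPM, a unit that divides reads by exon length and scales each library to the same total. In the libraries labelled Bmal1 KO, Calr (1497 ± 33.3 TPM) and Hsp90b1 (1491 ± 43.2) led and did not differ beyond their spread, followed by Hspa5 (1144 ± 8.05), Pdia3 (1016 ± 21.8), P4hb (917 ± 40.9) and Serpinh1 (869 ± 6.48). In the WT libraries Hsp90b1 (1248 ± 49.99 TPM) led and Serpinh1 (1114 ± 161) came next, within their spread of each other, before P4hb (926 ± 88.2, overlapping Serpinh1), Calr (871 ± 74.2), Hspa5 (679 ± 22.5) and Pdia3 (665 ± 32.7). Here P4hb and Calr, and likewise Hspa5 and Pdia3, did not differ beyond their spread. The same 6 genes thus filled the top ranks in both groups, with Serpinh1 sixth in libraries labelled Bmal1 KO and second in WT. At the low end stood Derl3 (5.44 ± 1.19 TPM in libraries labelled Bmal1 KO and 1.05 ± 0.299 in WT), Ern1 (12.2 ± 1.10, against 25.6 ± 6.98 in WT) and Eif2ak3 (30.3 ± 1.52, against 21.8 ± 2.63 in WT).

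**Figure D4:**
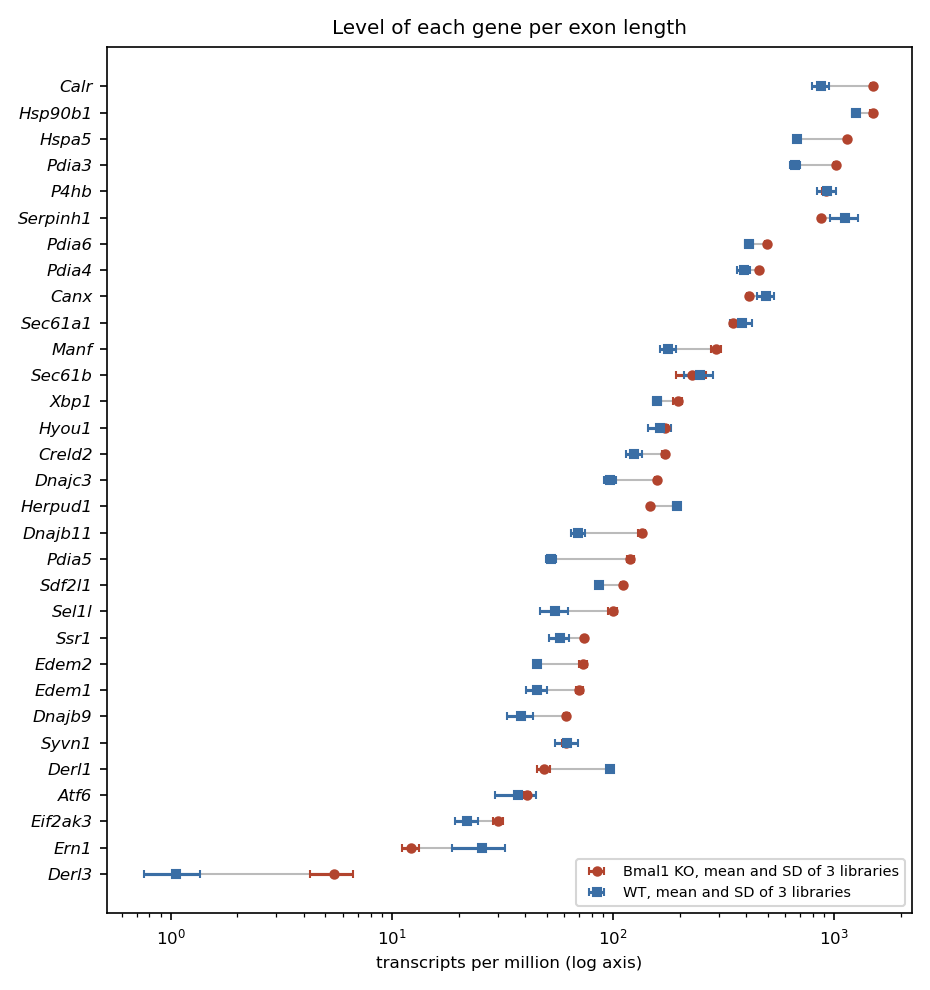
Level of each of the 31 genes in TPM on a log axis, as mean and SD of 3 libraries, with a grey line joining the groups. Calr stands at 1497 TPM in libraries labelled Bmal1 KO and 871 in WT, and Derl3, the lowest, at 5.44 in libraries labelled Bmal1 KO and 1.05 in WT.

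The rest of the pathway was examined in 9 further lists with 159 genes, of which 154 were tested. In them 49 rose, 48 fell and 57 missed the threshold. Their median log2 fold change was 0.028, and rises made up 31.8% and falls 31.2%. The share of rises was lower than among the 31 members (58.1%) and near that of all genes (36.2%), and no test of that difference was made. The counts given below for each list stand beside 36.2% of all genes tested that rose and 34.9% that fell.

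Further degradation genes rose in 16 of 35 cases and fell in 5. Ube2j1, which encodes a ubiquitin-conjugating enzyme anchored in the endoplasmic reticulum, averaged 4805 ± 135 in libraries labelled Bmal1 KO and 2450 ± 71.0 in WT (1.96-fold, adjusted p = 3.73e-06). H13, the signal peptide peptidase, rose 1.79-fold, and the ubiquitin ligase gene Rnf185 fell 1.66-fold. Other chaperones split, with 6 of 14 higher and 5 lower. The J-domain genes Dnajb14 and Dnajc25 rose 2.79-fold and 2.73-fold, and Mesd, a chaperone of lipoprotein receptors, fell 1.64-fold. In the glycoprotein lectin cycle 1 of 9 rose and 4 fell. The riser was Mcfd2, a cargo receptor subunit, by 2.11-fold, while the glucosidase genes Mogs and Ganab fell 1.54-fold and 1.39-fold.

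Further disulfide and prolyl isomerases rose in 9 of 24 cases and fell in 7. Fkbp14, a prolyl isomerase that acts on collagen, averaged 3804 ± 58.7 in libraries labelled Bmal1 KO and 1377 ± 20.5 in WT (2.76-fold, adjusted p = 3.67e-07), and the thioredoxin-like gene Txndc11 rose 1.65-fold. Collagen modification genes moved both ways, 7 of 15 higher and 5 lower. P4ha1, the catalytic subunit that pairs with P4hb, fell to 6736 ± 174 in libraries labelled Bmal1 KO, against 19594 ± 625 in WT (2.91-fold lower, adjusted p = 4.02e-07). Its relative P4ha3 had 3867 ± 110.1 in libraries labelled Bmal1 KO and 1302 ± 169 in WT (2.97-fold higher, adjusted p = 4.95e-06). Tmem38b, which encodes a potassium channel of the endoplasmic reticulum, rose 3.97-fold.

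Most genes of translocation and signal peptide removal did not pass, with 3 of 23 higher and 5 lower. Tram1 and the signal recognition receptor gene Srpr rose 1.56-fold and 1.47-fold, and Ssr2, a partner of Ssr1 in the TRAP complex, fell 2.18-fold. Of 12 oligosaccharyl transferase genes 4 rose, 2 fell and 6 did not pass. The share of rises, 33.3%, was near the 36.2% of all genes tested. Magt1 and the catalytic subunit Stt3b rose 1.35-fold and 1.38-fold, and the small subunit Krtcap2 fell 2.12-fold. Among 13 other sensors and regulators 3 rose and 7 fell. The transcription factor gene Creb3 rose 1.73-fold and its relative Creb3l3 7.16-fold from a low level (56.6 ± 10.9 in libraries labelled Bmal1 KO and 7.91 ± 2.23 in WT). Tmbim6, a membrane protein known to restrain IRE1, fell 1.58-fold.

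Most genes of the list named for the PERK arm were lower, while the PERK mRNA was higher. PERK activity was not measured, and whether these falls depended on PERK was not tested. Of 9 genes in this list 8 fell and none rose, where 34.9% of all genes fell, and the median of the 9 log2 fold changes was -1.26. Atf4, the transcription factor whose translation rises when PERK is active, had 4169.8, 4104 and 4076 normalized counts in libraries labelled Bmal1 KO, against 14916, 14674 and 13842 in WT (3.52-fold lower, adjusted p = 1.59e-07). Its known targets Trib3 and Chac1 fell 10.4-fold and 10.3-fold (adjusted p = 1.05e-07 and 1.98e-07). 

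**Figure D5:**
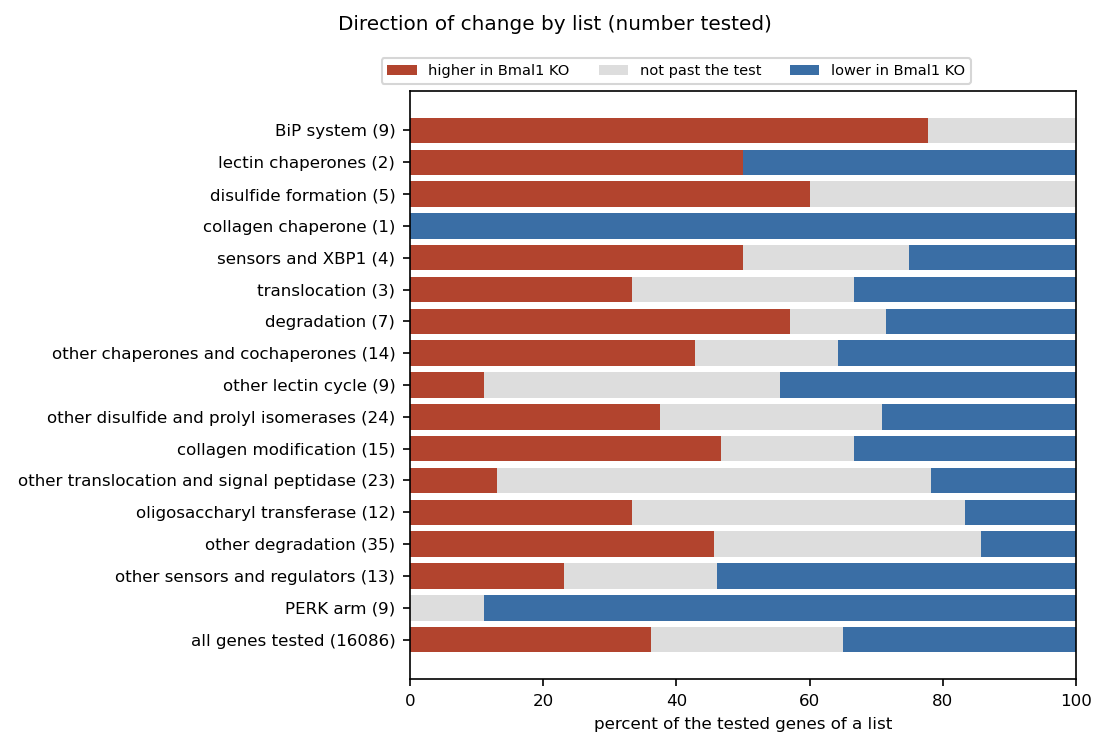
Percent of tested genes that were higher, lower or not past the test in each role group, in each of the 9 further lists and in all 16086 genes tested, with the number tested in brackets. The BiP group has the most red (7 of 9 higher) among groups with more than 2 genes, and the PERK list the most blue (8 of 9 lower).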

How the data were processed

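The authors' deposited table holds normalized read counts, a signal that is never negative, for each gene and library. The submitters' processing notes name Trimmomatic, HISAT2, featureCounts and the build mm10 but no version. Annotation and strand setting: not given in the sources used here. Dividing each library by its smallest step turned every non-zero value into whole reads (100% within 0.01), and the implied factors equalled median-ratio size factors. Reads came to 32503525 to 44657471 per library, and 0 columns were unmapped.

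The 16086 genes that reached 10 in 3 or more libraries were tested with limma (eBayes with trend) on log2(value + 1), group as the only term, Bmal1 KO minus WT. Log2 fold changes are on that scale, which understates low genes; folds are ratios of group means, and ± is the SD of 3 libraries. Benjamini-Hochberg adjusted p under 0.05 was the threshold. TPM used union exon lengths of GENCODE M21 (GRCm38), found for 21572 genes. Promoters and coordinates are from RefSeq GRCm38.p6, the build of mm10. Alternatives were other scalings, filters and a pseudocount of 10, the replicate block, each library left out, and edgeR and DESeq2 on recovered reads. edgeR's quasi-likelihood test called 11479 genes and limma 11435. Replicates differed by more than sampling noise.

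Members and lists were chosen with earlier results of these data known. Values of every library were to be given for members past the threshold by at least 1 on the log2 scale and for the 2 members of each role group with the smallest adjusted p; 3 genes were named per further list. Hspa5, Hsp90b1, Atf6, Sec61b, Syvn1, Herpud1 and Ero1b were shown per library, and the within-library ratios were chosen, after their values were seen. Listed symbols absent from the table were matched through RefSeq synonyms (14 of 159 genes). The software was DESeq2 1.42.0, edgeR 4.0.16 and limma 3.58.1 under R 4.3.3.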

Additional observations from a re-analysis of the deposited data

How the results depend on the processing

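Across 15 alternatives no member past the test changed direction, and 16 of the 18 rises and 5 of the 6 falls passed under each of them; the exceptions were Pdia4, Sdf2l1 and Sec61a1. The number of members higher stayed between 16 and 20 and lower between 5 and 6 when each library was left out in turn, and the median log2 fold change of the members ran from 0.25 to 0.32. Total-count scaling gave a median of 0.23, against 0.30 as reported, with 17 higher and 6 lower. With DESeq2, 20 were higher and 6 lower. Deviations of libraries with the same number correlated at -0.0045, 0.026 and 0.084, and those with different numbers at -0.131 to 0.0939. With 3 libraries per group, these values cannot decide whether the numbers pair the libraries. With the replicate block, 19 members were higher and 6 lower, and 11556 genes passed in all; Pdia6 and Sec61b passed and Sec61a1 did not (adjusted p = 0.0350, 0.0486 and 0.0561). Of 49 rises and 48 falls in the further lists, 42 and 42 passed under every alternative. The totals of 32503525 to 44657471 reads limit only the lowest genes, of which Derl3 with 66 WT reads was the lowest member.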

Other observations

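Pdia2, a disulfide isomerase known from the pancreas, had 783, 924 and 1378 normalized counts in libraries labelled Bmal1 KO, against 110.1, 34.0 and 181 in WT (9.50-fold higher, adjusted p = 0.000698). It was picked after its values were seen. Other genes of the PERK list fell as well, with the exception of Eif2s1. Ddit3, which encodes CHOP, averaged 1271 ± 109.5 in libraries labelled Bmal1 KO and 2987 ± 248 in WT, and Atf3 and Ppp1r15a had log2 fold changes of -1.86 and -1.26. Eif2s1, the initiation factor subunit that PERK phosphorylates, did not pass (log2 fold change 0.097, adjusted p = 0.275). Srp54a had 14.3, 13.2 and 11.4 in libraries labelled Bmal1 KO, against 97.2, 109 and 64.5 in WT, but its near-identical copies Srp54b and Srp54c make these counts uncertain.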
